A study of Rattus norvegicus with 12 samples.

Results

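The dorsal root ganglia (DRG) of the injected side were compared with those of the contralateral side in athymic nude rats, which lack a thymus and mature T cells because of a mutation of Foxn1. The rats were 8-week-old female Hsd:RH-Foxn1rnu animals that received 50 μg of the myelin basic protein peptide MBP84-104 in 5 μL into the left sciatic nerve, and the ganglia came from day 7. Per the labels, the right sciatic nerve received PBS alone, so the right ganglia are the control and carry the same mutation. Each side was 1 array, a pool of 3 rats, and the protocol gives the lumbar ganglia at levels 4 and 5. The labels do not say whether the left and right pools came from the same animals. The members were the probes well above background on at least 1 of both arrays, which held for 18784 of the 30367 non-control probes of the array. Of these, 17069 were well above background on both arrays, 1299 on the injected side alone and 416 on the contralateral side alone. DRG of wild-type rats served for comparison, and their labels give Sprague-Dawley, 8 weeks of age, the same dose and day 12. The paper instead describes heterozygous rnu+/- controls and tissue taken a week after the injection.

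A DRG holds the cell bodies of the sensory neurons whose axons form the peripheral nerve, wrapped by satellite glia, with Schwann cells, vessels, resident macrophages and a connective tissue capsule around them. When axons of these neurons are damaged in the nerve, the cell bodies switch on transcription factors such as Atf3 and neuropeptides such as galanin (Gal) and vasoactive intestinal peptide (Vip), which uninjured sensory neurons express little. The ganglia lie in the openings between vertebrae, next to bone, marrow and muscle. T cells that recognise MBP84-104 cannot be made in a thymus that is missing, and the nude rats are the arm of the study without a thymus.

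Values are given as the signal of a gene in multiples of the median signal of its array, followed by the log2 difference, injected side minus contralateral, with the standard error (SE) over repeated spots of the probe on the arrays. This error covers the array only. With 1 array per side no difference has a replicate check, no p-value can be given, and every value describes these pools. Nothing here separates fewer cells of a type from less RNA per cell. Where a gene was well above background on 1 array alone, the fold is written as "at least", against the higher of its own signal and the lowest signal of any probe well above background on the dim array.

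These probes stood for 10078 named genes of 15159 on the array. Of them, 179 (1.78%) were at least 2-fold higher on the injected side, 81 (0.804%) were lower by that much, and the median difference over these genes was 0.02. The central 90% of the genes measured on both arrays lay between -0.50 and 0.42, and their SD was 0.30. Only 42 of the higher and 28 of the lower genes were well above background on both arrays, and the remaining 137 and 53 are bounds. The arrays had median signals of 22.8 (injected side) and 19.5 units, and 64.5% and 61.9% of spots were well above background. The tissue label was checked with 25 sensory neuron genes, of which 24 were well above background on both DRG arrays and 19 were higher on both DRG arrays than on both sciatic nerve arrays of nude rats. The mutated gene itself, Foxn1, lay at 0.917 times the median on the injected side and at 0.380, not well above background, on the contralateral side, a level that does not check the rat type.

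**Figure D1:**
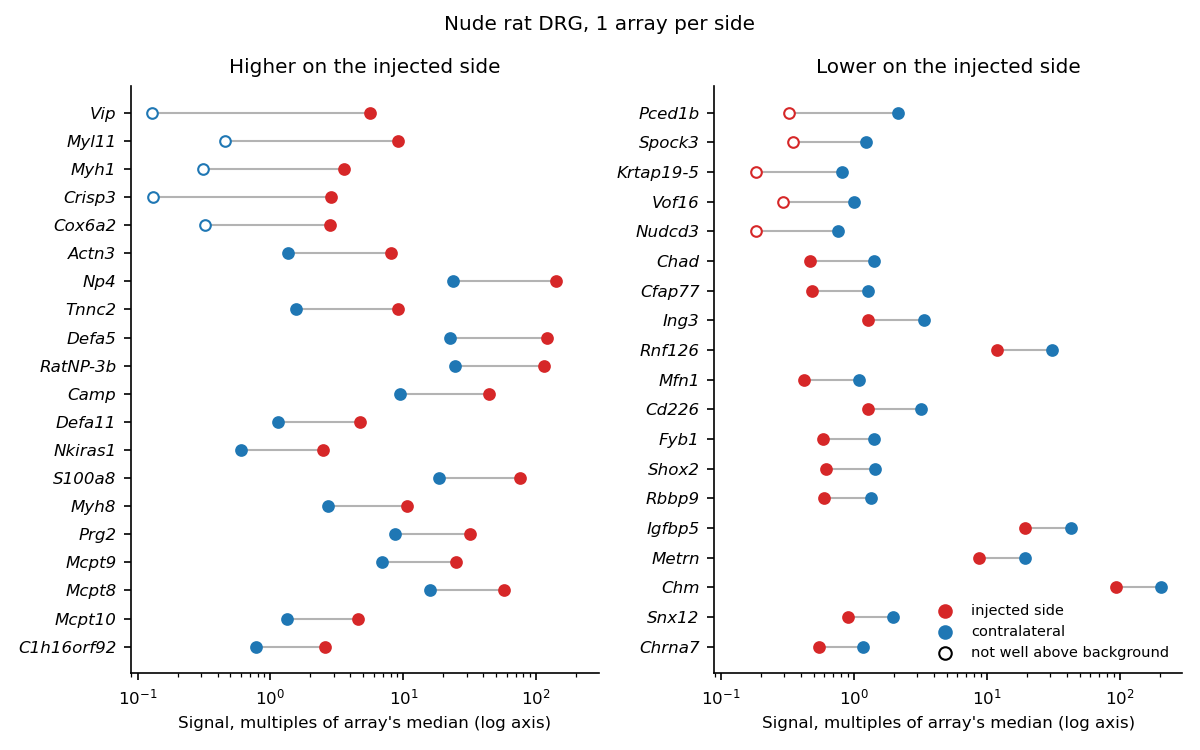
Signal of the genes with the largest differences between the nude DRG arrays, in multiples of the array's median on a log axis, with the injected side in red and the contralateral side in blue. Open circles were not well above background. Vip, Myl11 and Myh1 go from not well above background to between 3.56 and 9.12 times the median.

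Some neuropeptides of the injured sensory neuron were higher on the injected side, and Vip had the largest bound of the named genes. Gal, a peptide that inhibits transmitter release, lay at 83.1 times the median on the injected side and at 26.6 on the contralateral side, a difference of 1.64 ± 0.03 (SE, 10 spots per array) or 3.12-fold, and its second probe gave 1.65. Vip, a peptide that relaxes smooth muscle and raises cyclic AMP, lay at 5.63 on the injected side and at 0.129 on the contralateral side. The contralateral signal was not well above background, so Vip was at least 21.8-fold higher. Vip was also not well above background on either sciatic nerve array of the nude rats. Ucn, which encodes urocortin, a relative of corticotropin-releasing hormone, lay at 1.15 and 0.284, at least 4.04-fold higher, with a spot SE of 0.54. Nts (neurotensin) lay at 0.535 and 0.126, at least 2.07-fold higher. These 4 were the only members past 2-fold among the 24 neuropeptide genes measured of the 28 on the list. Atf3, the transcription factor most widely used as a mark of injured sensory neurons, lay at 8.67 and 5.01, a difference of 0.79 ± 0.06 or 1.73-fold.

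The other genes of the injury list stood close to equal. Of its 37 genes on the array, 32 were measured, 23 lay above 0, 5 were at least 2-fold higher and none was lower by that much, with a median of 0.13 beside 0.02 over the named genes. Over all named genes, 53.7% lay above 0 and 1.78% were at least 2-fold higher. Of the 32, 7 are bounds, and 16 of the 25 genes on both arrays lay above 0, with a median of 0.06. Among the 5 higher genes, only Gal was well above background on both arrays. The fifth of those higher genes was Arg1, an enzyme of arginine breakdown, at 0.830 and 0.387, at least 2.15-fold higher. Gap43, a growth cone protein, lay at 59.9 and 58.0 (0.04 ± 0.01), and Jun lay at 20.3 and 21.1 (-0.06 ± 0.07). Npy, neuropeptide Y, lay at 117 and 137 (-0.23 ± 0.03), and Csf1, a growth factor of macrophages and microglia, at 1.85 and 1.77 (0.06 ± 0.06). Gadd45a lay at 3.50 and 3.96 (-0.18 ± 0.11), and Cacna2d1, the calcium channel subunit bound by gabapentin, at 8.11 and 8.79 (-0.12 ± 0.10). Il6, a cytokine, was not well above background on either array.

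The promoters of Gal, Ucn and Vip are shown because they are the neuropeptide genes at least 2-fold higher on the injected side in nude rats and, as given below, in wild-type rats. Each sequence is the 250 bases before the gene's start, 5′ to 3′ on the gene's strand, from RefSeq on GRCr8, with capitals on the half-site TGACG of the cyclic AMP response element (CRE), searched on both strands, and on the palindrome TGACGTCA, which contains it.
Gal, chr1:210084573-210084822, - strand: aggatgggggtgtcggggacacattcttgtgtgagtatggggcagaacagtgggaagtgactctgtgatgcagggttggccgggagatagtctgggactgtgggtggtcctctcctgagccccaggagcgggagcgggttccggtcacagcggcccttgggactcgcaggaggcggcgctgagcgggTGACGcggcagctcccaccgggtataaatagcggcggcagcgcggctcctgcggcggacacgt
Ucn, chr6:30957836-30958085, + strand: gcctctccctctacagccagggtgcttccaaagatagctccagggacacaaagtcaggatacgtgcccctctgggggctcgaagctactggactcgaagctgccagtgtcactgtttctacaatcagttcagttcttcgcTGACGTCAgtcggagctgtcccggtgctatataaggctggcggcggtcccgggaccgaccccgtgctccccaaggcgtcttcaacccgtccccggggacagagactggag
Vip, chr1:44470230-44470479, + strand: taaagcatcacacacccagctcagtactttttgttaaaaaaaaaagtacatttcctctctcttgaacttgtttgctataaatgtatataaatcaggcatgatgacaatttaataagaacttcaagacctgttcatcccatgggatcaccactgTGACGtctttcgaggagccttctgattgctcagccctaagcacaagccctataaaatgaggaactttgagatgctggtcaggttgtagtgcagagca
The half-site began 63 bases before the start of Gal, 97 before that of Vip and, as part of the palindrome, 110 before that of Ucn. It occurred in 18.2% and the palindrome in 1.59% of the 33469 promoter windows of the same length. A match describes letters and not a bound factor.

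Genes of sensation were close to equal or slightly lower on the injected side. Of 24 measured sensory neuron genes, 8 lay above 0 and none passed 2-fold, with a median of -0.06 and a range from -0.42 (Snap25, a protein of synaptic vesicle fusion) to 0.38 (Ntrk2, the BDNF receptor). With normexp background correction, 16 of the 24 lay above 0, with a median of 0.08 beside 0.08 over the named genes. Calca, which encodes the peptide CGRP, lay at 480 and 449 (0.09 ± 0.01), and Tac1, which encodes substance P, at 348 and 297 (0.23 ± 0.04). The second probe of Tac1 gave -0.05. The sodium channel genes of nociceptors lay at 14.9 and 18.5 for Scn9a (-0.31 ± 0.03), 37.7 and 38.6 for Scn10a (-0.03 ± 0.03), and 50.2 and 53.7 for Scn11a (-0.10 ± 0.04). The heat and ATP receptors Trpv1 (0.08 ± 0.13) and P2rx3 (0.06 ± 0.05) were near equal, but the second probe of Trpv1 gave -0.37.

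Lists of ion channels and transmitter receptors had medians below 0. Among TRP, P2X and ASIC channels, 4 of 13 measured genes lay above 0, with a median of -0.32 and none past 2-fold. Of these 13, 2 are bounds, and the median was -0.13 over the 11 genes on both arrays and -0.06 with normexp background correction. The cold receptor Trpm8 lay at 5.82 and 9.12 (-0.65 ± 0.06) and the osmotic sensor Trpv4 at 1.13 and 1.81 (-0.68 ± 0.17). Among glutamate, GABA and glycine receptors, 5 of 22 lay above 0, with a median of -0.24, or -0.07 with normexp. Of the 22, 4 are bounds, and the median over the genes on both arrays was also -0.24. At least 2-fold lower were 2 genes, both as bounds, with a lowest value of -1.61. The brightest member, Glra2, lay at 834 and 1380 (-0.73 ± 0.04). The glycine receptor subunit Glrb, with levels of 0.346 and 0.876, was not well above background on the injected side and at least 2.53-fold lower. Among potassium channels, 10 of 31 lay above 0 with a median of -0.07. With quantile normalization 15 of 31 lay above 0, and with normexp 17 of 31, with a median of 0.04 beside 0.08 over the named genes. The A-type channel Kcnd3 was at 1.06 and 2.01 (-0.92 ± 0.09) and the large-conductance channel Kcnma1 at 4.70 and 7.97 (-0.76 ± 0.17). The second probe of Kcnma1 gave -0.17. In wild-type DRG the medians of these 3 lists were 0.07, 0.20 and -0.03.

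The differences also moved with signal brightness. In 5 equal groups of the genes measured on both arrays, ordered by mean signal, the median difference ran from -0.07 in the dimmest through -0.03, -0.01 and 0.01 to 0.09 in the brightest. The bright ribosomal protein genes lay above 0 in 37 of 37 cases, from 0.01 to 0.41, with a median of 0.22, and the genes of mitochondrial respiration in 31 of 33, with a median of 0.15. With cyclic loess, a normalization that follows brightness, 20 of 37 ribosomal protein genes lay above 0 with a median of 0.01. Mitochondrial respiration then had 26 of 33 above 0 with a median of 0.06. The TRP, P2X and ASIC list stood at -0.30 and the glutamate, GABA and glycine receptors at -0.25. The part of brightness in the list medians was not tested further.

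**Figure D2:**
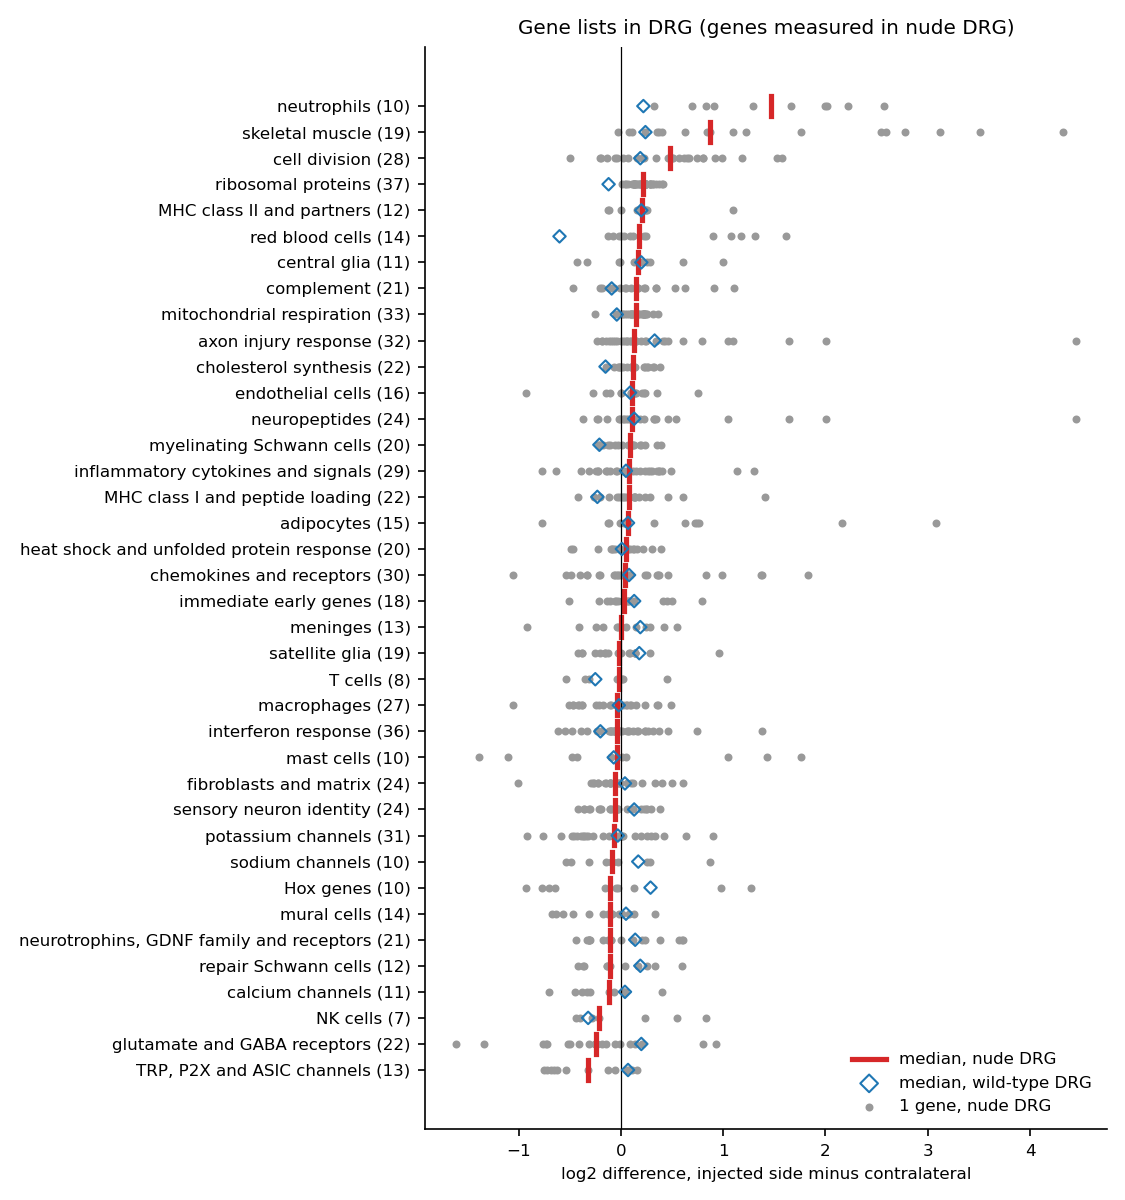
Log2 difference between the DRG sides for 38 gene lists, with 1 gray point per measured gene of nude DRG, a red bar at the nude median and a blue diamond at the wild-type median; numbers in brackets count genes measured in nude DRG. Neutrophil and skeletal muscle genes have the highest nude medians, 1.47 and 0.87, beside 0.22 and 0.24 in wild-type DRG.

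Genes of granulocytes and their precursors in bone marrow had the highest median of the lists. Of 15 neutrophil genes on the array, 10 were measured, all of these lay above 0 and 6 were at least 2-fold higher, with a median of 1.47. Of the 10, 4 are bounds seen on the injected array alone, which by construction lie above 0. The 6 genes on both arrays had a median of 1.84, and without filter or floor 12 of 15 lay above 0 with a median of 0.91. With normexp background correction the median of the 10 was 0.32. Their levels summed over the 15 genes to 356 times the array's median on the injected side and 85.6 on the other. Np4, an alpha-defensin of neutrophil granules, lay at 140 and 23.6, a difference of 2.57 ± 0.05 or 5.93-fold. S100a8 and S100a9, which form the calprotectin complex, lay at 75.1 and 18.5 (2.02 ± 0.05) and at 86.9 and 27.5 (1.66 ± 0.04). Camp, the cathelicidin of secondary granules, lay at 44.1 and 9.49 (2.22 ± 0.04). The serine proteases of primary granules were dimmer. Prtn3 lay at 1.03 and 0.216, at least 3.99-fold higher, and Ctsg at 0.631 and 0.159, at least 2.44-fold higher. Elane, Lcn2, Mmp8, Cxcr2 and Ltf were not measured. The 5 list genes on the array without a measurement were not well above background on either side.

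Relatives of these genes, listed after their values were seen, stood out on the same side. The alpha-defensins Defa5 (121 and 22.4), RatNP-3b (115 and 24.5) and Defa11 (4.74 and 1.14) differed by 2.44, 2.24 and 2.06, and their near-identical sequences may share probes. Prg2, the major basic protein of eosinophils, lay at 31.7 and 8.59 (1.88 ± 0.04). Mcpt8, a protease of basophils, lay at 56.8 and 15.8 (1.85 ± 0.07), and its relatives Mcpt9 and Mcpt10 differed by 1.87 ± 0.05 and 1.76 ± 0.07. Rnase3, a ribonuclease of eosinophil granules, lay at 1.20 and 0.127, at least 4.63-fold higher. Mast cell genes were mixed, with 5 of 10 above 0, 3 at least 2-fold higher (Mcpt10, Fcer1a and Hdc) and 2 lower (Cpa3 and Gata2). Of these genes past 2-fold, all but Mcpt10 are bounds, seen on 1 array alone. The chymase Cma1 lay at 2.55 and 3.54 (-0.48 ± 0.09). In wild-type DRG, Prg2 (-0.05), Mcpt8 (-0.35), S100a8 (-0.13) and S100a9 (-0.04) did not lie higher on the injected side. The alpha-defensins did, with 0.95 for Np4, 0.75 for Defa5, 1.03 for RatNP-3b and 0.79 for Defa11, and Camp differed by 0.22.

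Some markers of red cell precursors, bone and dividing cells were also higher on the injected side. Bglap, which encodes osteocalcin of osteoblasts, lay at 6.83 and 2.45 (1.48 ± 0.08), and Acp5, an enzyme of osteoclasts, at 10.0 and 7.15 (0.48 ± 0.04). Of 10 bone genes, 6 were measured, 5 lay above 0 and 1 was at least 2-fold higher, while Ibsp, Dmp1, Phex and Mepe were not measured. Ahsp, a chaperone of alpha-globin in red cell precursors, lay at 56.4 and 26.6 (1.08 ± 0.10). The globin genes Hba-a1 (0.00 ± 0.10) and Hbb (-0.08 ± 0.05) were equal on both sides. Of 28 cell division genes measured, 22 lay above 0 and 3 passed 2-fold, each as a bound, with a median of 0.48. With normexp the median was 0.17, beside 0.08 over the named genes. In wild-type DRG 24 of 31 lay above 0 with a median of 0.19. Between the nude nerves 27 of 31 lay above 0 with a median of 1.14. Rrm2, a subunit of ribonucleotide reductase, lay at 7.87 and 4.15 (0.92 ± 0.08), and Bub1, a checkpoint kinase, at 1.64 and 0.824 (0.99 ± 0.02). Np4 stayed short of well above background on the 4 sciatic nerve arrays of the series. It lay at 23.6 and 20.0 on the contralateral DRG arrays of nude and wild-type rats. Np4 was well above background on the cord arrays. It lay there at 5.14 (lumbar) and 2.52 (above lumbar) in nude rats, and at 0.566 and 1.31 in wild-type rats. S100a8 was well above background on all 4 nerve arrays, and Camp on all but the wild-type contralateral nerve. Mcpt8 lay at 33.6 and 31.2 on the nude nerves. Of the 15 neutrophil genes, 5 were measured between the nude nerves and 8 were not well above background on either. The part of marrow or bone carried with the ganglia in the DRG differences was not tested.

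**Figure D3:**
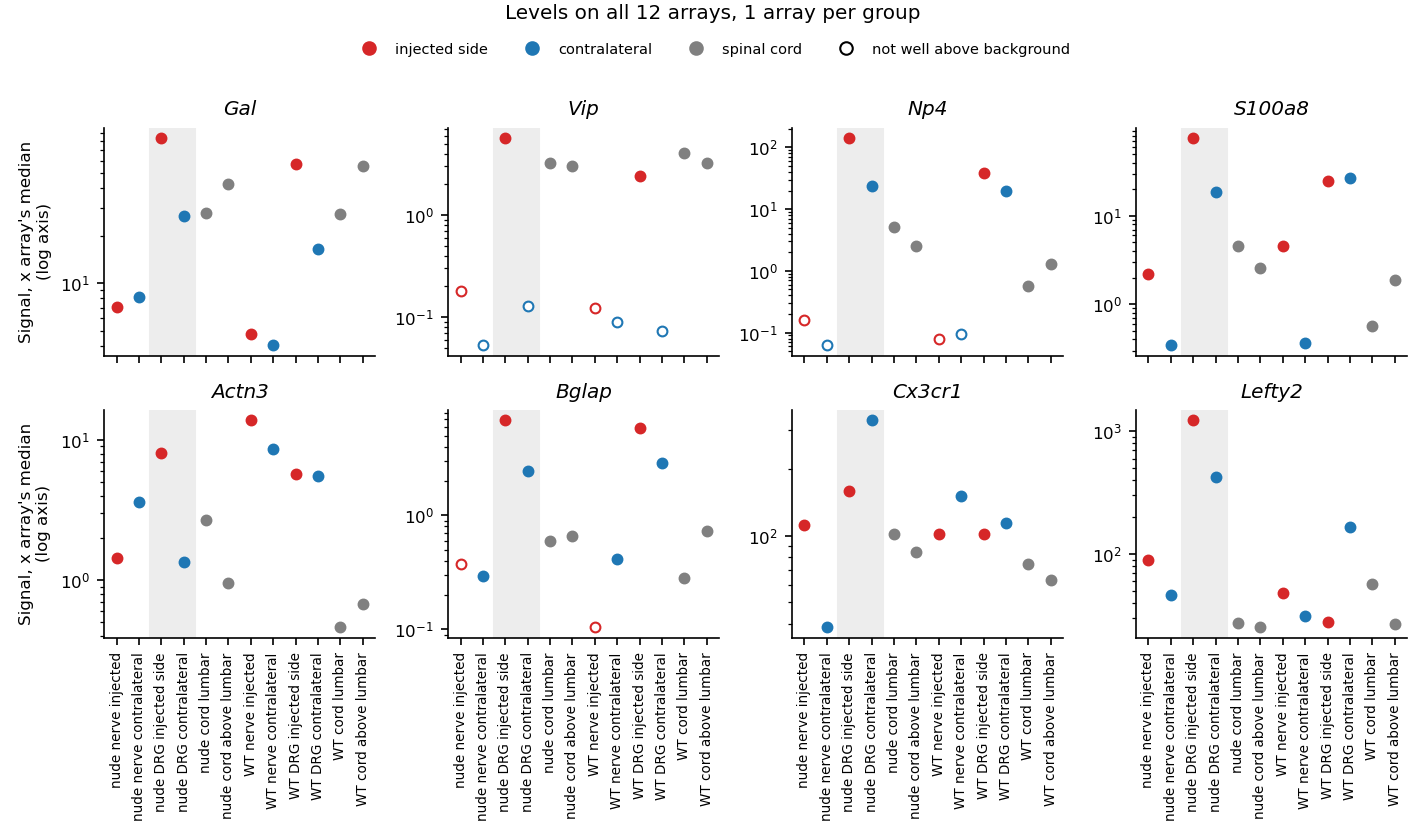
Levels of 8 genes on the 12 arrays of the series, in multiples of each array's median on log axes, with the nude DRG pair shaded, injected sides in red, contralateral sides in blue, cords in gray and open circles for signals not well above background. Vip is not well above background on the contralateral DRG and on the nerves of both rat types. The same holds for Np4 on the nerves. Lefty2 is highest on the nude DRG arrays.

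Skeletal muscle genes were the other group with large differences. Of 29 on the array, 19 were measured, 18 lay above 0 and 9 were at least 2-fold higher, with a median of 0.87 and levels that summed over the 29 genes to 100.0 and 50.9. Of the 19, 6 are bounds, and the median was 0.40 over the 13 genes on both arrays and 0.43 with normexp. Actn3, an anchor of the Z-disc, lay at 8.13 and 1.35 (2.59 ± 0.09), and Tnnc2, a fast troponin, at 9.04 and 1.56 (2.54 ± 0.05). Myl11, a fast myosin light chain, lay at 9.12 and 0.458, at least 19.9-fold higher, and Myh1, a fast myosin heavy chain, at 3.56 and 0.312, at least 11.4-fold higher. Atp2a1, the calcium pump of fast fibers, lay at 3.23 and 0.470, at least 6.86-fold higher. Tnnc1, a slow troponin, differed by 0.40 ± 0.04, myoglobin (Mb) by 0.08 ± 0.18 and Acta1, the skeletal actin, by 0.11 ± 0.04. Myh2, Myh4 and Myh7 were not measured. In wild-type DRG, 25 of 28 measured muscle genes lay above 0, 7 were at least 2-fold higher and none was lower by that much, with a median of 0.24. There Actn3 lay at 5.71 and 5.51 and Myl11 at 3.33 and 2.96, so the nude contralateral array was the lowest of the 4 DRG arrays for both genes. The part of muscle carried with the ganglia was not tested. Among adipocyte genes, Retn, which encodes resistin, and Adipoq, which encodes adiponectin, were at least 8.48-fold and at least 4.46-fold higher, while the other 13 measured members stayed within 2-fold and the list's median was 0.07.

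Macrophage genes showed no such shift. Of 27 measured, 10 lay above 0, with a median of -0.04 and a range from -1.05 to 0.49. The general markers Aif1 (74.7 and 75.3, -0.01 ± 0.02, second probe 0.22) and Cd68 (6.67 and 6.44, 0.05 ± 0.04) were near equal. The exception was Cx3cr1, the fractalkine receptor, at 159 and 330 (-1.05 ± 0.02), for which the contralateral nude DRG was the highest of the 12 arrays. The other signals of inflammation were mixed. Of 30 chemokine and receptor genes, 17 lay above 0, 3 were at least 2-fold higher (Ccl17, Cxcl9 and Cxcl14) and 1 lower (Cx3cr1). Ccl17, a chemokine that draws helper T cells, lay at 1.30 and 0.365, at least 3.56-fold higher, and Ccl2, which draws monocytes, at 44.3 and 34.5 (0.36 ± 0.02). Il1b lay at 2.71 and 1.93 (0.49 ± 0.06) and Tnf at 1.10 and 1.43 (-0.39 ± 0.22). Mmp2, a gelatinase, lay at 50.8 and 59.3 (-0.22, 1 spot), and its second probe gave 0.21. Mmp9 and Il17a were not well above background on either array.

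Antigen presentation genes were slightly higher and most T cell genes were not well above background. Of 12 measured genes of MHC class II and its partners, 9 lay above 0, with a median of 0.21. Cd74, the invariant chain, lay at 79.6 and 71.3 (0.16 ± 0.02), and RT1-Da, a class II chain, at 28.6 and 23.8 (0.26 ± 0.04). In wild-type DRG 10 of 14 measured genes of this list lay above 0, with a median of 0.20. Cd74 differed there by 0.36 and RT1-Da by 0.58. RT1-Ba was not measured. Of 20 T cell genes on the array, 12 were not well above background on either side, among them Cd3e, Cd4, Cd2, Cd5, Cd8a, Lck and Cd28. The 8 measured had a median of -0.02 and summed levels over the whole list of 24.0 and 27.0, beside 19.4 and 25.3 in wild-type DRG, where Cd3e was not well above background either. These levels do not tell the rat types apart. Cd3d, a chain of the T cell receptor complex, was measured at 4.77 and 6.08 (-0.35 ± 0.10). The interferon response had a median of -0.04 over 36 genes, beside -0.20 in wild-type DRG.

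Glia, vessels and connective tissue were close to equal. Myelinating Schwann cell genes had a median of 0.09 with 12 of 20 above 0, or -0.02 with 9 of 20 with cyclic loess. Mbp, the gene of the injected protein fragment, lay at 5150 and 4890 (0.07 ± 0.06). In wild-type DRG the same list had a median of -0.21 with 2 of 20 above 0. Satellite glia genes had a median of -0.02. Gfap, a filament of reactive glia, was not well above background on either array. Of 14 genes of central glia, 11 were measured, with a median of 0.17. Fibroblast and matrix genes had a median of -0.06 and endothelial genes 0.11.

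The remaining lists had medians between -0.21 and 0.15 and few members past 2-fold. Complement genes had a median of 0.15, with 14 of 21 above 0. C3, the central component, lay at 4.39 and 3.03 (0.53 ± 0.04), and its receptor C3ar1 at 0.639 and 0.295, at least 2-fold higher. Genes of MHC class I and peptide loading had a median of 0.08, cytokines and inflammatory signals 0.08, immediate early genes 0.03, heat shock and unfolded protein genes 0.05 and cholesterol synthesis 0.12. Psmb9, a subunit of the immunoproteasome, and Cebpb, a transcription factor of inflammation, passed 2-fold with spot SEs of 1.07 and 1.22, so the spots of a probe disagreed by as much as the difference. Medians below 0 were those of NK cells (-0.21), calcium channels (-0.12), growth factors of neurons and their receptors (-0.11), mural cells (-0.11), repair Schwann cells (-0.11), Hox genes (-0.11) and sodium channels (-0.09). The meninges stood at 0.00. With normexp, NK cells stood at -0.05, calcium channels at 0.05, growth factors and their receptors at 0.02 and mural cells at 0.01. Repair Schwann cells then stood at 0.04, Hox genes at -0.0 and sodium channels at 0.07, beside 0.08 over the named genes.

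The 15 largest falls measured on both arrays belonged to no list. Chad, chondroadherin of cartilage matrix, lay at 0.471 and 1.41 (-1.58 ± 0.13). Igfbp5, a binding protein of insulin-like growth factors, lay at 19.5 and 43.2 (-1.15 ± 0.11), and Rnf126, a ubiquitin ligase, at 12.0 and 31.2 (-1.38 ± 0.11). Chm, an escort protein of Rab GTPases, lay at 93.4 and 204 (-1.13 ± 0.06), and its second probe gave -0.80. Chrna7, a nicotinic receptor subunit, lay at 0.548 and 1.18 (-1.11 ± 0.24), and Metrn, a secreted factor of glia and axons, at 8.77 and 19.3 (-1.14, 1 spot). Ing3 (-1.40 ± 0.18), Cd226 (-1.31 ± 0.05), Fyb1 (-1.26 ± 0.14), Mfn1 (-1.38 ± 0.42), Rbbp9 (-1.18 ± 0.66), Cfap77 (-1.40), Shox2 (-1.23) and Snx12 (-1.12) were also in the set, the last 3 from 1 spot each. Of the 5 largest bounds, Pced1b (at least 6.61-fold lower), Spock3, Krtap19-5, Vof16 and Nudcd3, each rested on 1 spot per array. Among the largest rises, C1h16orf92 (1.70) also rested on 1 spot, Myh8, a perinatal myosin, differed by 1.96 ± 0.09, and the second probe of Nkiras1 gave -0.16 where the first gave 2.05 ± 2.12.

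In wild-type DRG, taken 12 days after the injection from Sprague-Dawley rats per the labels, 137 of 11512 named genes (1.19%) passed 2-fold upwards and 70 (0.608%) downwards. Those arrays lay on another slide, so rat type, day and slide cannot be told apart. Of the genes past 2-fold, 20 were higher in both rat types, 11.2% of the nude and 14.6% of the wild-type list, and 1, Chad, was lower in both. Of the 20, only Bglap, Cxcl14, Gal, RatNP-3b and Ttr were well above background on all 4 DRG arrays. The others are bounds in 1 or both rat types. The injected-side array was the brighter of each pair, with median signals of 57.6 and 37.6 units in wild-type DRG. There 2441 probes were well above background on the injected side alone and 42 on the contralateral side alone. The part of this in the shared counts was not tested. Over 9327 genes well above background on all 4 arrays, the 2 sets of differences had a Pearson correlation of -0.09 and a Spearman correlation of -0.13 across genes, which are not independent replicates. The arrays of the 2 comparisons are separate, and no test of the overlap was made.

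**Figure D4:**
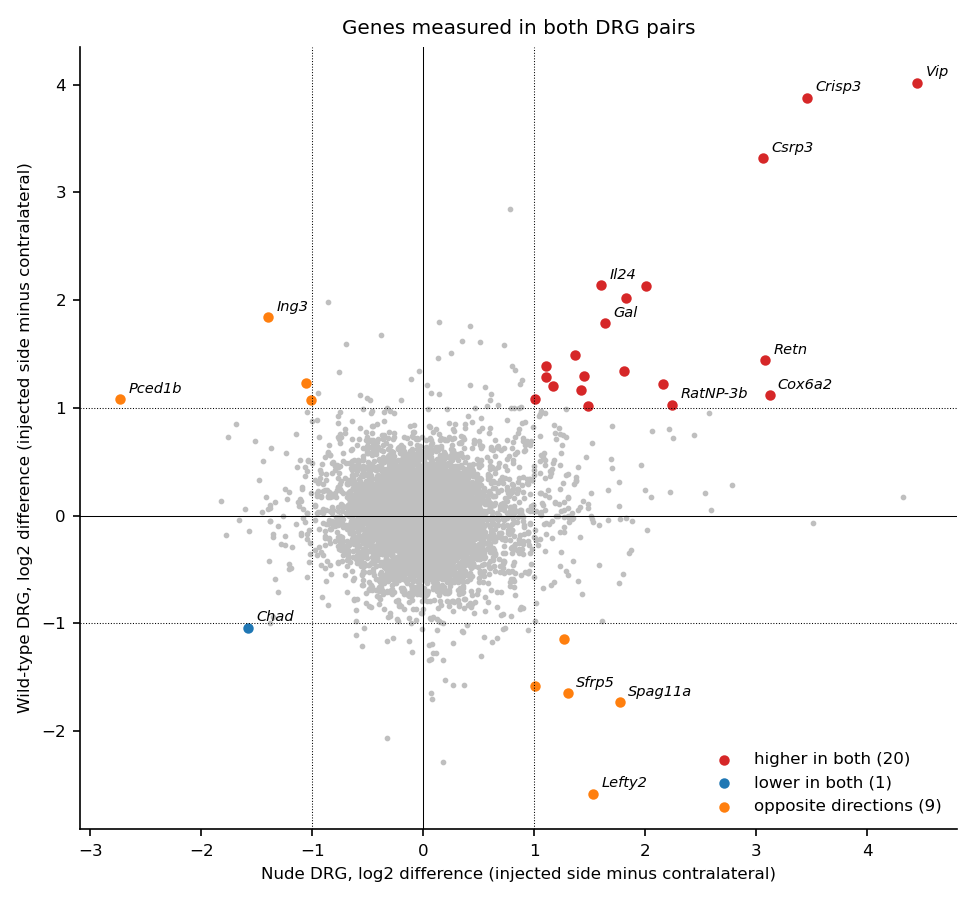
Log2 difference between DRG sides in nude rats (horizontal) and wild-type rats (vertical) for the 10019 genes measured in both, with dotted lines at 2-fold. The 20 genes higher in both are red, Chad is blue and the 9 genes past 2-fold in opposite directions are orange.

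The shared genes included those of the injured neuron. Gal lay at 56.8 and 16.4 in wild-type DRG, 3.45-fold higher, beside 3.12-fold in nude DRG, and Vip at 2.42 and 0.0725, at least 16.2-fold higher, beside at least 21.8-fold. Ucn was at least 4.38-fold higher in wild-type DRG, and Atf3, short of 2-fold in nude DRG, lay at 10.9 and 5.45. Crisp3, a cysteine-rich secretory protein, was at least 11.0-fold higher in nude DRG (2.83 and 0.130) and at least 14.7-fold in wild-type DRG (2.20 and 0.0681). Csrp3, a LIM protein of striated muscle, was at least 8.36-fold and at least 9.98-fold higher. Il24, a cytokine of the interleukin-10 family, was at least 3.03-fold and at least 4.41-fold higher. For each of these genes the 2 injected-side DRG arrays stood above the 2 contralateral ones. The shared genes also included Adipoq, Ampd1, Bglap, Ccl17, Cox6a2, Cxcl14, Eno4, Hamp, Hspb7, Pm20d2, RatNP-3b, Retn and Ttr. Of the 18 shared genes with a promoter sequence, 4 held the CRE half-site (Eno4, Gal, Ucn and Vip), which 18.2% of promoter windows held, and 2 the AP-1 site TGANTCA (Cxcl14 and Hamp), which 6.34% of promoter windows held.

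In the sciatic nerves of nude rats, the median over the named genes was -0.39, and 28.3% of genes lay above 0, against 53.7% in the DRG. The injected nerve array was dimmer, with a median signal of 15.4 units beside 49.0, and 59.5% beside 70.8% of spots well above background. There 93 probes were well above background on the injected nerve alone and 3582 on the contralateral nerve alone. The part of this in the shift and in the gene values of the nerves was not tested. Gal differed by -0.21, Actn3 by -1.33 and Tnnc2 by -1.11 between the nerves, whereas S100a8 was higher on the injected nerve by 2.67. Genes of red blood cells had a median of 2.87 in the nerve and 0.18 in the DRG.

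Of the 6956 measured probes without a gene name, 195 were higher and 82 lower by at least 2-fold in nude DRG. The largest differences were those of A_64_P026500 (22.8 and 0.137, at least 88.5-fold) and A_64_P013119 (5.61 and 0.137, at least 21.7-fold), both with 1 spot on each array. In wild-type DRG these probes were bright on both sides, at 14.1 and 18.2 and at 5.81 and 8.02.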

How the data were processed

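Total RNA was labelled with Cy3 and hybridised to Agilent SurePrint G3 Rat GE 8x60K arrays, 1 array per pool of 3 rats. Spot intensity is the deposited processed signal of Agilent Feature Extraction (10.5 per the labels, 10.7.3.1 per the file headers), from which the authors' software had subtracted the background, with no step between arrays. The deposited flags of 0 or 1 (other values) mark spots well above background, saturated spots (none on these arrays) and outliers. The deposited log2 values are the authors' normalized values and served as an alternative.

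Of 62976 spots, 58717 were non-control. Spots without an outlier flag were averaged per probe as log2 and centred on the array's median. A probe counted as well above background when at least 0.5 of its unflagged spots did. RefSeq accessions named 18006 of 30367 probes (15159 genes, annotation GRCr8), and the brightest probe stood for a gene. Of the measured probes, 110 were left out because the floor turned the sign of the difference. A few genes that the rule names are not reported here. Probe sequences were not searched, so gene families may share signal.

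No test was run: there was 1 array per side, and the methods' t-test needs replicates. Both arrays shared a slide. The labels give day 7 and 3 pooled rats where the study's text gives another number of animals. For wild-type rats the labels give day 12 and Sprague-Dawley, where the study's text gives a week and heterozygous rnu+/- rats. Genes were named by rule: the 15 largest rises and falls measured on both arrays, the 5 largest bounds each way, up to 5 members of each of 39 lists, and a fixed set of injury, channel and immune genes. Genes of shared or opposite difference, unnamed probes, other list members and 3 added lists (bone, eosinophil and basophil granules, alpha-defensins) were chosen after values were seen. The members and lists were chosen with earlier results of these data known. A list needed 5 measured genes for a median. The B cell list had 3. The calculation was tested on simulated data. Python 3.11.15, numpy 2.4.6, pandas 2.3.3 and matplotlib 3.10.9 were used, with R 4.3.3 and limma 3.58.1 for normalization. Alternatives covered scaling (cyclic loess, quantiles, the 75th percentile), normexp with an offset of 50 on the median spot signal and background, the authors' values, 3 other filters, the mean of all probes, outlier spots kept, and thresholds of 3-fold and 1.5-fold.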

Additional observations from a re-analysis of the deposited data

Results flagged for a closer look

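Among the genes named by rule, 4 passed 2-fold in opposite directions in nude and wild-type DRG. The difference between the rat types was not tested, and rat type, day and slide cannot be told apart. Foxn1 differed by 1.27 ± 0.42 (spot SE) in nude DRG and by -1.15 in wild-type DRG. The nude value is a bound of at least 2.42-fold, since the contralateral side was not well above background. Ing3 differed by -1.40 ± 0.18 in nude DRG and by 1.84 in wild-type DRG. Pced1b had 1 spot per array and bounds in both rat types: it was at least 6.61-fold lower (-2.73) in nude DRG and at least 2.11-fold higher (1.08) in wild-type DRG. Sfrp2, a secreted Wnt inhibitor of fibroblasts, differed by -1.01 ± 0.17 in nude DRG and by 1.07 in wild-type DRG.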

How the results depend on the processing

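At a 2-fold threshold, 179 genes were higher and 81 lower on the injected side. Normexp, run on the median spot signal and median background instead of the processed signal, left 22 and 1. It added an offset of 50 units, beside median processed signals of 22.8 and 19.5 units on these arrays. A constant added to both sides makes the log2 differences of dim genes smaller, and its part in the lost calls and list medians was not tested. The filter on both arrays left 42 and 28, and no filter and no floor 378 and 285. A 3-fold threshold gave 47 and 7, and a 1.5-fold threshold 517 and 425. Under alternatives chosen after seeing the data, a spot SE of 0.5 or less left 100 and 41 (genes with 1 spot drop out), and a flag on every spot of the probe 66 and 37. The share of higher among called genes was 68.8%, and 62.4% with the authors' values, 63.2% with quantile normalization, 72.8% with cyclic loess and 95.7% with normexp. The remaining counts lay within 1.5 times. Each of the 52 named genes past 2-fold kept its sign under every alternative that gave it a value, and 19 of these stayed past 2-fold under each. Of 380 list medians under alternatives, 33 moved by more than the spot spread. No paired analysis was possible because each side had 1 array, and for the same reason no array could be left out and the methods' t-test was not run.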

Other observations

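Lefty2, which encodes a secreted inhibitor of Nodal signaling, and Sfrp5, which encodes a secreted Wnt inhibitor, were among the genes past 2-fold in opposite directions and were chosen after their values were seen. Lefty2 lay at 1230 times the array's median on the injected side of nude DRG and 425 on the other (1.53 ± 0.05), but at 27.7 and 166 in wild-type DRG (-2.58). Sfrp5 lay at 870 and 354 in nude DRG and at 52.2 and 163 in wild-type DRG, and its second probe gave 0.40 in nude DRG where the first gave 1.30. For both genes the nude DRG arrays were the highest of the 12 arrays, and the wild-type contralateral DRG was the next. Defb43, Slc7a3l1 and Spag11a were the other genes past 2-fold in opposite directions.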
